A study of Mus musculus with 272 samples.

Results

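The genes described here are Tpx2, Aurka, Aurkb, Aurkc, Incenp, Birc5, Cdca8 and Plk1, which build and steer the spindle of dividing cells. They were taken by name, as mitotic kinases, chromosomal passenger genes and Tpx2, and all 8 were found among the 15854 gene symbols of the series. All 8 passed the filter on low values in every comparison. Their levels were followed through 8 stages of mouse development: the germinal vesicle (GV) oocyte, the metaphase II (MII) oocyte, the zygote, the 2-cell, 4-cell and 8-cell (2C, 4C, 8C) embryo, the morula and the blastocyst. At each stage, pools of about 20 oocytes or embryos gave transcriptome libraries (n = 4), and lysates of about 100 were spun through sucrose gradients that were cut into 10 fractions (n = 3 gradients). All lysates contained cycloheximide, which holds ribosomes on their transcripts. No stage carried a genetic change, drug treatment or other manipulation in the labels, and the strain, age and hormone treatment of the animals are not given in the sources used here. The groups are pools of whole oocytes or embryos. Fewer cells of a type and less RNA per cell therefore cannot be told apart. The labels do not say that pools or gradients of a stage came from separate collections, so p-values measure the spread between these samples, which may be partly technical.

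Aurora A, encoded by Aurka, builds the spindle poles, and the microtubule protein Tpx2 binds and activates it. Aurora B, encoded by Aurkb, corrects faulty attachments of chromosomes to microtubules as the kinase of the chromosomal passenger complex. Its partners there are the scaffold Incenp, the small protein survivin (Birc5) and borealin (Cdca8), and Aurora C, encoded by Aurkc, is a close relative that takes the same place in germ cells. Polo-like kinase 1 (Plk1) drives entry into and exit from M phase. Oocytes arrest in meiosis without transcription, so the transcripts of the GV and MII oocyte are stored maternal ones, which are used, kept or destroyed before the embryonic genome takes over around the 2C stage in the mouse.

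Values are read counts scaled to library size (CPM). The fractions are numbered in the labels without other names. Here fractions 6 to 10 are called heavy, since transcripts that carry several ribosomes sediment far by convention, and fractions 1 to 5 are called light. The heavy or light level of a gradient is the mean CPM of its fractions on that side. A CPM is a share of its own library, so a level in a fraction says nothing of the amount of RNA there. Changes are differences of log2(CPM + 1), which understate the change of low genes. A change was called when limma's moderated test gave a Benjamini-Hochberg adjusted p under 0.05 over all genes tested and the change was at least 1. Both kinds of library started from polyadenylated RNA per the labels, so a change in the amount of a transcript and a change in its poly(A) tail cannot be told apart.

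Transcriptome libraries held 11.2 to 24.3 M reads and fraction libraries 0.0102 to 43.2 M. Reads were amplified without molecular identifiers, so read numbers cover counting error only. The heavy fractions of 2C and 4C gradients had lower median gene numbers (3189 to 4765) than those of the other stages (5738 or more). A CPM of at least 1 was reached by 2021 to 6187 symbols in single heavy fractions of the 2C stage and by 2584 to 4916 at 4C, against 12077 to 12457 and 11143 to 11278 in the transcriptomes of these stages. The heavy fractions of 4C gradient A stood lowest, with a median of 3189 symbols against 3998 and 4564 in gradients B and C. The 8 genes were at 0 in 15.4% of their 240 values in 2C fractions, 19.6% at 4C and 11.7% at 8C, against 0.417% in MII, zygote and blastocyst fractions. Results that involve the 4C gradients are therefore given with and without gradient A, an alternative chosen after seeing the data. The labelled stages carried their markers: 5 oocyte genes summed to 15440 to 17220 CPM in GV pools and to 30.7 to 41.1 CPM in morula pools, 5 genes of the 2C embryo to 1983 to 2671 CPM at 2C, and 7 blastocyst genes to 2364 to 2886 CPM in blastocysts. Of 8 markers of the follicle cells around an oocyte, 3 were analysed here, and they summed to 39.4 to 68.9 CPM in GV, MII and zygote pools. The part of such cells in the results was not tested.

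The sequences around 4 gene starts are shown first, because 5 of the 8 genes rose between the 2C and the 4C embryo and because genes expressed in mitosis often carry short promoter elements named CHR (TTTGAA) and CCAAT. Of the 8 genes, 5 had a promoter in the RefSeq table used here, on build GRCm38.p6: Aurka, Cdca8, Aurkc, Plk1 and Birc5. The table gives 300 bases for each, and the last 150 are printed for 4 of them, each ending 49 bases after the first base of the gene. Capitals mark TTTGAA and CCAAT on either strand (TTCAAA and ATTGG on the other one).
Aurka, chr2:172370521-172370670, minus strand: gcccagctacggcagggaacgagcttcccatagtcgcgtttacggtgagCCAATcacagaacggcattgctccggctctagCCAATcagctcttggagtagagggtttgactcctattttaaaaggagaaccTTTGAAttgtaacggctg
Plk1, chr7:122159335-122159484, plus strand: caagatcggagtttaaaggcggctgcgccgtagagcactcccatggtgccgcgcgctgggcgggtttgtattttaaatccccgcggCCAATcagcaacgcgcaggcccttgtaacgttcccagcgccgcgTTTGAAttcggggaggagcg
Cdca8, chr4:124936868-124937017, minus strand: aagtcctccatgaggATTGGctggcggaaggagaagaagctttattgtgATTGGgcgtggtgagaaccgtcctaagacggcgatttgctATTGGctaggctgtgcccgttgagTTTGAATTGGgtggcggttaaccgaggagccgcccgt
Aurkc, chr7:6995285-6995434, plus strand: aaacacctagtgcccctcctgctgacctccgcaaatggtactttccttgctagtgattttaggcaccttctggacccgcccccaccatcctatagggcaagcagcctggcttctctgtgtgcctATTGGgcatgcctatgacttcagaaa

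Aurka, Plk1 and Cdca8 each held 1 TTTGAA, which began 32, 30 and 13 bases after the first base of the gene. Aurka held 2 CCAAT, 51 and 19 bases before that base, and Plk1 held 1, 14 bases before it. Cdca8 held 4 CCAAT, all on the other strand, and the last of them shares 1 base with its TTTGAA. Aurkc held 1 CCAAT on the other strand and no TTTGAA in its 300 bases, and Birc5 held neither. TTTGAA occurred in 17.9% and CCAAT in 37.4% of all 32851 promoters of the table, and both in 7.0%. These are letters in a window and no measured binding. Between 2C and 4C, Aurka and Plk1 rose in the transcriptome, and Cdca8, Aurkc and Birc5 were not called.

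The 3′ ends are shown because maternal transcripts whose 3′ end carries a cytoplasmic polyadenylation element (TTTTAT or TTTTAAT) near a poly(A) signal (AATAAA or ATTAAA) can gain a longer tail when the oocyte matures. In the last 100 bases of 1 annotated transcript for each gene (the longest principal one of gencode vM21), Aurka, Aurkb and Aurkc held such an element. Capitals mark the element and the poly(A) signal, which Aurka did not hold in this window.
Aurka: gctattTTTTATgttggagttctgtcatgt
Aurkb: acaacaTTTTATAATAAAgtcttaaatgtt
Aurkc: tttctcTTTTATgaagtgatgttaATTAAA

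The elements began 59, 37 and 44 bases before the end of the Aurka, Aurkb and Aurkc transcripts. The Aurkb element directly adjoins its poly(A) signal. The other 5 genes held a poly(A) signal but no such element in that window, although the ends of other transcripts of the same genes were not searched. Of 21760 genes with a protein-coding transcript, 16.5% held the element in this window, and 74.1% held a poly(A) signal.

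Aurkc has near-identical copies in the genome, which limits what its values mean. A search of the annotated transcripts found 10 pseudogenes that share at least 93.2% of the aligned bases with the Aurkc transcript, and 6 of them had values here. The closest was Gm12463, a processed pseudogene, with 99.2% identity over 849 of the 1154 bases of Aurkc. Its mean CPM lay near that of Aurkc, at 240.1 ± 13.9 in GV pools, 309 ± 34.8 in MII, 44.8 ± 7.60 at 2C and 13.95 ± 2.77 in blastocysts (SD, n = 4), where Aurkc was at 289.6 ± 23.9, 374 ± 37.1, 49.3 ± 10.3 and 9.04 ± 2.45. The other 5 copies had means of at most 10.9 CPM at any stage. Reads of Aurkc and Gm12463 may therefore have been shared between the names, and levels of Aurkc alone are uncertain. With its 6 copies added, Aurkc was at 540 ± 36.7 CPM in GV pools, 697 ± 73.0 in MII, 105.8 ± 17.2 at 2C and 24.02 ± 5.22 in blastocysts. Plk1 had 1 copy with values, Plk-ps1 (93.4% identity), with means of at most 0.578 CPM. With these copies added to Aurkc and Plk1, an alternative chosen after seeing the data, no call of these 8 genes was lost or gained. Aurka overlaps Cstf1 in the annotation, and the counting is not stated to use strand, so reads of the overlap cannot be told apart.

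**Figure D1:**
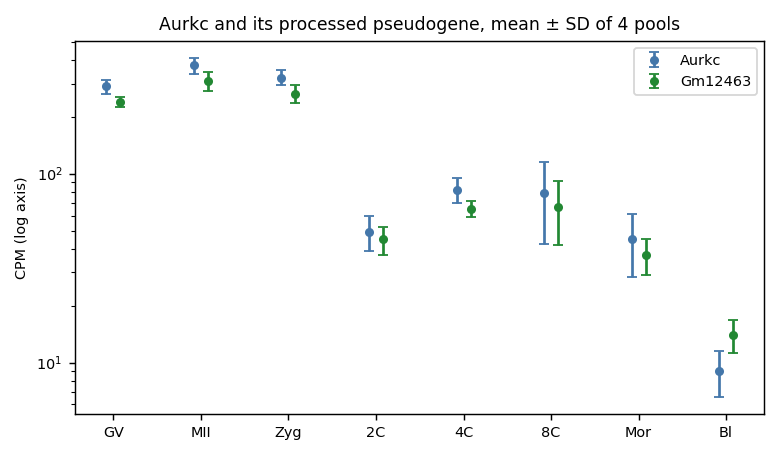
Mean CPM (log axis) with SD over 4 transcriptome pools for Aurkc and for its processed pseudogene Gm12463, by stage from GV oocyte to blastocyst (Zyg, zygote; Mor, morula; Bl, blastocyst). The means are 374 and 309 CPM in MII and 9.04 and 13.95 CPM in the blastocyst, with Aurkc above Gm12463 up to the morula and below it in the blastocyst.

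Levels of different genes are compared per kilobase of that representative transcript, which is approximate because its annotation (GRCm38) is older than the authors' build. The order also depends on the length used. Birc5 has 947 bases in that transcript and 3402 in its merged exons, Cdca8 1626 and 5177, and Aurkc 1154 and 1523. The order with merged exons was not computed. By the transcript length Birc5 stood highest in 7 of the 8 stages, at 1331 ± 39.1 CPM per kilobase in GV pools and 755 ± 56.6 in blastocysts. In MII pools it was at 236 ± 11.8, below Aurkc (324 ± 32.1) and Cdca8 (296 ± 50.1), which did not differ beyond their spread. Incenp and Aurkb were the lowest at every stage up to the morula, with 11.2 ± 0.443 and 15.5 ± 1.40 CPM per kilobase in GV pools. In blastocysts Aurkc had become the lowest with 7.83 ± 2.12, and Aurkb with 15.7 ± 3.74 was the next. Aurka and Aurkc in GV pools (251 ± 18.0 and 251 ± 20.7) could not be ordered.

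**Figure D2:**
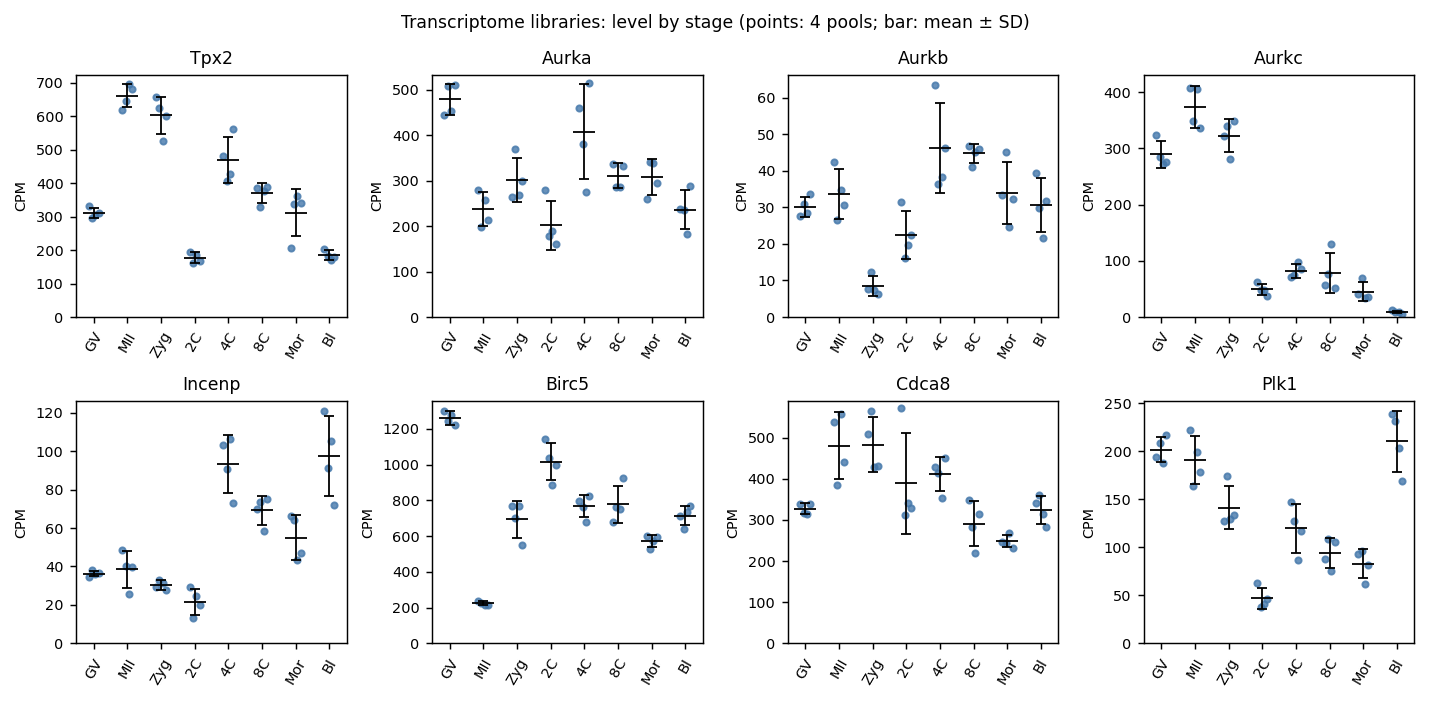
CPM in each of 4 transcriptome pools (points) with mean ± SD (bars) for the 8 genes, by stage; each panel has its own axis from 0. Birc5 drops to 224 CPM in MII, Tpx2 is highest in MII and zygote, Aurkb is lowest in the zygote, and Tpx2, Aurkc, Incenp and Plk1 have low points at 2C or later.

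Maturation from the GV to the MII oocyte asked which stored transcripts changed. In the transcriptome Tpx2 rose, and Aurka and Birc5 fell. The other 5 were not called, among 34.5% of all 14642 genes called. The median change of all genes was -0.11, which moved to 0.16 when the libraries were quantile normalized, so changes close to 1 depend on the scaling.

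Tpx2 read 333, 296, 304 and 312 CPM in the 4 GV pools and 620.1, 647, 698 and 680.4 in the MII pools. All MII pools lay above all GV pools. The change was 1.08 ± 0.13 (SE, limma adjusted p = 6.39e-09). It was 0.97 with quantile normalization, just under the threshold.

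Birc5 read 1302, 1241, 1279 and 1219 CPM in GV pools and 239, 224, 215 and 216 in MII pools. The groups lay far apart, with a change of -2.49 ± 0.11 (limma adjusted p = 1.01e-20). Aurka read 445, 507, 454 and 509.5 CPM in GV and 279, 198, 258 and 214 in MII, again without overlap. Its change of -1.02 ± 0.17 (limma adjusted p = 3.24e-06) fell under the size threshold without replicate B, without replicate D, and with edgeR on the reads, where it was between -0.94 and -0.69. Cdca8, the borealin gene, moved by 0.54 ± 0.15 (limma adjusted p = 0.0029), past the p threshold and short of the size threshold. Plk1, Incenp, Aurkb and Aurkc had changes of -0.09 to 0.37, with 95% intervals that stayed within -0.43 and 0.81.

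The gradients gave another picture of Birc5 at maturation. Its heavy levels were 545, 691 and 647 CPM in the 3 GV gradients and 783, 406 and 508 in the MII gradients, and the 2 groups overlapped. Its light levels were 482, 600.4 and 448 CPM in GV and 686, 679.9 and 673 in MII. The heavy level changed by -0.20 ± 0.46, far less than the transcriptome. The difference between both changes, tested as an interaction, was 2.29 ± 0.41 (limma adjusted p = 7.21e-05). It was called under each of the 18 alternatives run, from 1.95 to 2.59. The fit takes 1 spread per gene from pools and gradients together. For Birc5 the SE of 0.41 therefore lies below the 0.46 of the heavy change alone. Where gradients vary more than pools, p-values of such interactions with the transcriptome can be too small, here and at later steps. In MII oocytes the mean of all Birc5 fraction libraries was 2.79 times its transcriptome mean, against 0.451 times in GV oocytes. That ratio stood at percentile 83.9 of 5858 genes in MII and at percentile 33.9 of 7064 genes in GV.

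Tpx2 behaved in the opposite way. Its heavy levels were 86.2, 123 and 104 CPM in GV gradients and 37.8, 97.1 and 107 in MII gradients, which overlapped. The interaction was -1.57 ± 0.50 (limma adjusted p = 0.0367), and it was lost under 7 alternatives, among them edgeR, quantile normalization and leaving out replicate B, C or D. No other of the 8 genes was called in this comparison, in which 8.22% of all 15165 genes were. In the heavy fractions themselves none of the 8 was called between GV and MII by limma or by edgeR, none had an unadjusted p under 0.05, and 4.06% of all genes were called. Without 4C gradient A, whose spread enters the fit of all stages, Aurka was called there. Its heavy mean was 498 ± 109 CPM in GV and 215 ± 23.3 in MII (SD, n = 3), a change of -1.19 ± 0.29 (limma adjusted p = 0.0148, background 6.02%), against -1.19 ± 0.84 (limma adjusted p = 0.612) with that gradient.

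**Figure D3:**
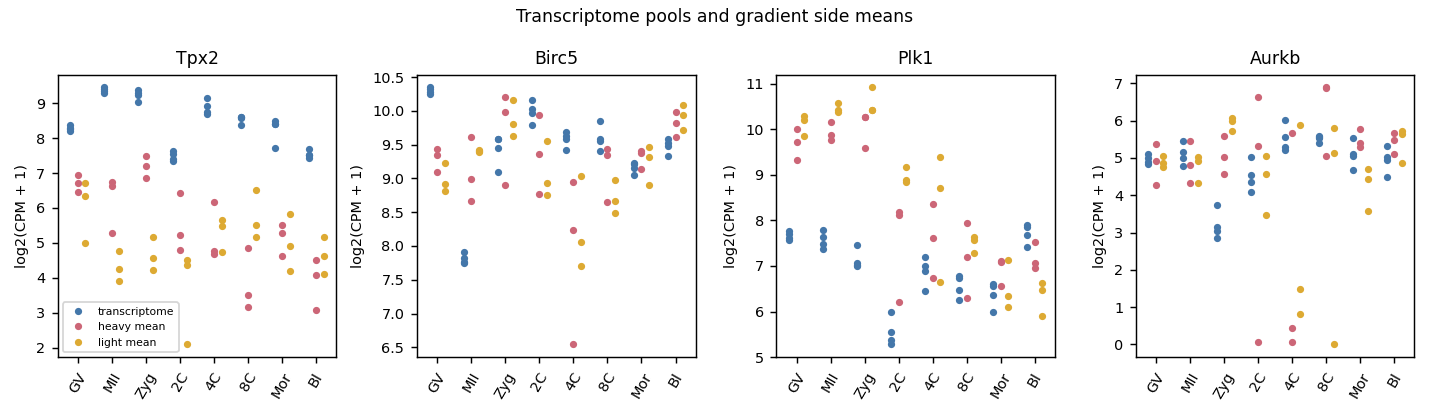
log2(CPM + 1) of Tpx2, Birc5, Plk1 and Aurkb in the 4 transcriptome pools (blue) and as the heavy mean (red) and light mean (yellow) of 3 gradients, by stage. Birc5 drops in the MII transcriptome and not in the MII gradients, Tpx2 lies higher in transcriptomes than in gradients throughout, and Plk1 lies higher in gradients up to the 2C stage.

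Fertilization, from the MII oocyte to the zygote, moved 2 passenger genes in opposite directions. Aurkb fell and Birc5 rose in the transcriptome, where 10.3% of all genes were called. Aurkb read 42.5, 26.5, 34.8 and 30.7 CPM in MII pools and 7.79, 12.4, 7.30 and 6.22 in zygotes, with no overlap and a change of -1.90 ± 0.21 (limma adjusted p = 1.36e-08). Birc5 went from 224 ± 11.1 to 695 ± 103 CPM (SD, n = 4), a change of 1.62 ± 0.11 (limma adjusted p = 6.34e-14). Both calls held under every one of their alternatives. Tpx2, Aurka, Aurkc, Incenp, Cdca8 and Plk1 had changes of -0.43 to 0.34.

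The zygote gradients did not show the low Aurkb level. Its heavy levels were 47.1, 31.7 and 22.9 CPM and its light levels 66.0, 63.0 and 52.2 in zygote gradients, against a highest transcriptome value of 12.4 CPM. The mean over the fractions was 5.59 times the transcriptome mean, where it had been 0.834 times in MII. The interaction for Aurkb was 2.10 ± 1.16 (limma adjusted p = 0.51), so the difference did not pass. None of the 8 was called there by limma or edgeR, with 2 and 1 at an unadjusted p under 0.05, and 2.28% of all genes were called. In the heavy fractions 1.49% of genes were called between MII and zygote and none of the 8 was by either tool, with no unadjusted p under 0.05. Without 4C gradient A, Aurka was called at this step too, with a heavy mean of 514 ± 119 CPM in zygotes (SD, n = 3) and a change of 1.24 ± 0.29 (limma adjusted p = 0.0233, background 2.65%), against 1.24 ± 0.84 (limma adjusted p = 0.779) with it.

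Between the zygote and the 2C embryo, when maternal transcripts are cleared, Tpx2, Aurkc and Plk1 fell in the transcriptome and Aurkb rose. The share of all genes called was 33.9%, and their median change was 0.37, or -0.07 with quantile normalization. Tpx2 read 657, 625, 527 and 602 CPM in zygotes and 196, 162, 185 and 169 at 2C, a change of -1.75 ± 0.13 (limma adjusted p = 5.78e-14). Aurkc read 323, 339, 281 and 348 CPM in zygotes and 62.8, 47.97, 48.7 and 37.7 at 2C, a change of -2.70 ± 0.22 (limma adjusted p = 4.04e-13). Plk1 read 128, 174, 130 and 134 CPM in zygotes and 63.0, 37.8, 40.8 and 46.0 at 2C, a change of -1.59 ± 0.17 (limma adjusted p = 5.23e-10). In all 3 genes every 2C pool lay below every zygote pool, and these calls held under each alternative. Aurkb went from 8.43 ± 2.74 to 22.4 ± 6.62 CPM (SD, n = 4), a change of 1.31 ± 0.21 (limma adjusted p = 2.66e-06) that came to 0.79 with quantile normalization. Birc5, Aurka, Incenp and Cdca8 had changes of 0.55, -0.60, -0.52 and -0.35, all short of the size threshold.

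The heavy fractions lost Aurkc and Plk1 as well at this step. Plk1 heavy levels were 1227, 1236 and 767 CPM in zygotes and 278, 292 and 73.2 at 2C, a change of -2.53 ± 0.49 (limma adjusted p = 0.00083) that was called under every alternative. Aurkc heavy levels were 359, 499.7 and 256 CPM in zygotes and 96.1, 149.02 and 73.5 at 2C, a change of -1.81 ± 0.43 (limma adjusted p = 0.0046), which edgeR did not call (adjusted p = 0.0709). The background was 20.8% of all genes, 741 upward and 2282 downward. The median heavy change of all genes was -0.51, or -0.007 with quantile normalization. For Tpx2 the heavy levels were 115, 147 and 179 CPM and then 85.9, 36.1 and 27.0, with a change of -1.70 ± 0.61 (limma adjusted p = 0.0535), and without 4C gradient A, which shares its estimate of the spread, the same change had an adjusted p of 0.0297. No interaction of the 8 was called at this step by limma, although 2 had an unadjusted p under 0.05, and 27.5% of all genes were called. By edgeR 1 was called, Aurkc, at 1.67 (adjusted p = 0.0191).

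From the 2C to the 4C embryo 5 of the 8 genes rose in the transcriptome, namely Tpx2, Aurka, Aurkb, Incenp and Plk1, and none fell. At this step 64.8% of all genes were called, 4662 upward and 4823 downward, and the median change was 1.01 for the 8 genes and 0.02 for all. Incenp read 29.1, 13.2, 24.5 and 20.0 CPM in the 2C pools and 103, 90.6, 106.3 and 72.8 at 4C, a change of 2.09 ± 0.20 (limma adjusted p = 7.57e-12). Tpx2 went from 178 ± 15.5 to 470.1 ± 69.0 CPM and Plk1 from 46.9 ± 11.3 to 120 ± 25.1 (SD, n = 4), changes of 1.39 ± 0.13 and 1.33 ± 0.17. In these 3 genes all 4C pools lay above all 2C pools, and all 3 calls held under each alternative. Aurka (1.01 ± 0.17) and Aurkb (1.02 ± 0.21) lay at the size threshold. With edgeR they came to 0.89 and 0.91 and were not called. Quantile normalization gave 0.66 for Aurka, and leaving out single pools took both calls away in several cases. Aurkc had a change of 0.74 ± 0.22, Cdca8 of 0.12 ± 0.15 and Birc5 of -0.41 ± 0.11.

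The heavy fractions did not follow. By limma none of the 8 genes rose there between 2C and 4C (by edgeR Aurkc did, by 1.39, adjusted p = 0.0396), and Birc5 fell from 437, 980.0 and 654.5 to 92.2, 299.7 and 494.5 CPM, a change of -1.45 ± 0.46 (limma adjusted p = 0.0158) among 37.8% of all genes called. Without 4C gradient A, which held the 92.2 CPM, the Birc5 change was -0.76 and was not called. Against the transcriptome a lower heavy change was called for 6 of the 8 genes, among 31.8% of all genes called. The median was -1.68 for the 8 genes and -0.16 for all. Cdca8 was also lower by at least 1 but did not pass the p threshold, and Aurkc was not called. The interaction was -1.67 ± 0.50 for Tpx2, -2.95 ± 0.76 for Aurka, -2.96 ± 1.16 for Aurkb, -2.33 ± 0.81 for Incenp, -1.04 ± 0.41 for Birc5 and -1.27 ± 0.47 for Plk1, with limma adjusted p-values of 0.00239 to 0.0468. Gradient A carried much of this. Its heavy level of Aurka was 8.79 CPM against 285 and 519 in gradients B and C, and that of Incenp 0.200 against 31.9 and 16.7. Without it, Tpx2 (-2.16, adjusted p = 0.0005) and Aurka (-1.19, adjusted p = 0.00557) were called and the other 4 were not. With edgeR none of the 8 was called, although 2 had an unadjusted p under 0.05. Detection of genes in these fractions was low, as given above, and its part in these values was not tested.

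Later steps moved fewer of these transcripts. Between 4C and 8C none of the 8 genes was called in the transcriptome by limma or edgeR, with 4 and 1 at an unadjusted p under 0.05, and 2.60% of all genes were called. The changes ran from -0.52 (Cdca8) to 0.02 (Birc5). Between 8C and morula none was called by either tool, with 3 and 5 at an unadjusted p under 0.05, and the background was 11.9%. Aurkc had the change farthest from 0 of the 8 genes there, -0.76 ± 0.22. In the heavy fractions none of the 8 was called from 4C to 8C (background 6.54%), from 8C to morula (7.98%) or from morula to blastocyst (0.0757%) by limma or edgeR. The numbers at an unadjusted p under 0.05 were 3, 2 and 0 with limma and 1, 1 and 0 with edgeR. The Aurkc change of -1.34 ± 0.43 from 8C to morula had a limma adjusted p of 0.0599, and of 0.0353 without 4C gradient A, where it was called (background 11.4%).

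Relative to the transcriptome, the heavy fractions of Aurkb and Birc5 gained between 4C and 8C, by 4.21 ± 1.16 (limma adjusted p = 0.0105) and 1.22 ± 0.41 (limma adjusted p = 0.0401), where 13.7% of all genes were called. Of these 2085 calls 1816 were upward. The median over all genes was 0.40, or -0.035 with quantile normalization, under which both calls held. The values of Aurkb and Birc5 rest on the low 4C levels. Aurkb heavy levels were 0.349, 0.0562 and 50.1 CPM at 4C and 115, 118 and 32.05 at 8C. Without 4C gradient A neither was called: the value was 3.40 ± 1.20 for Aurkb (limma adjusted p = 0.0557) and 0.53 ± 0.33 for Birc5 (limma adjusted p = 0.352). With edgeR neither was called, and Tpx2 was, at -2.38 (adjusted p = 0.00278). Tpx2 gained 1.57 ± 0.50 between 8C and morula (limma adjusted p = 0.0459), where 6.45% of all genes were called, and lost this call under 10 alternatives. With heavy levels of 10.5, 28.0 and 8.02 CPM at 8C and 23.6, 38.1 and 44.6 in morulae, its groups overlapped.

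In the blastocyst, where the first 2 tissues of the embryo have formed, Aurkc fell and Plk1 rose in the transcriptome against the morula, among 26.8% of all genes called. Aurkc read 41.3, 69.3, 34.1 and 35.0 CPM in morulae and 12.2, 9.35, 8.34 and 6.28 in blastocysts, a change of -2.16 ± 0.22 (limma adjusted p = 2.76e-10). Plk1 read 93.0, 95.8, 62.3 and 81.2 CPM and then 239, 231.5, 203.5 and 169, a change of 1.34 ± 0.17 (limma adjusted p = 4.4e-08). In both genes the groups did not overlap, and both calls held under each alternative. Tpx2 changed by -0.72 ± 0.13 and was called by edgeR only (-1.03, adjusted p = 1.09e-06). No interaction was called at this step (background 2.20%) by limma or edgeR, with 2 and 1 at an unadjusted p under 0.05. Aurkc came to 1.36 ± 0.45 (limma adjusted p = 0.113), and its fractions averaged 6.29 times its transcriptome level in blastocysts.

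The position of each transcript within the gradients was described by its mean fraction number, weighted by CPM, without a test. The median over all genes with enough signal was 5.73 in GV, 5.59 in MII, 5.52 in the zygote and 5.66 in the blastocyst. Tpx2 lay at 5.93 ± 1.20 in GV, 7.54 ± 0.84 in MII and 7.72 ± 0.13 in the zygote (SD, n = 3), at percentiles 60.4, 94.0 and 95.4 of all genes. Its GV gradients lay at 4.79, 5.82 and 7.18. With fraction 1 left out, which held as few as 0.0102 M reads in GV gradients, Tpx2 lay at 7.44 ± 0.10 in GV, 7.62 ± 0.78 in MII and 7.87 ± 0.14 in the zygote. With all fractions in, Tpx2 lay at percentile 66.2 at 2C, 22.2 at 8C and 13.0 in blastocysts. Its SDs were then over 1 fraction at each stage from 2C on. Without fraction 1 it lay at 6.45 ± 0.68 at 2C, 5.04 ± 1.17 at 8C and 5.55 ± 0.99 in blastocysts. Cdca8, with all fractions in, lay at 7.02 ± 0.64 in the zygote (percentile 86.1), against 5.52 ± 0.46 in MII.

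Aurka lay further toward the heavy end in later stages. It was at 5.56 ± 0.39 in GV, 5.53 ± 0.10 in MII and 5.68 ± 0.23 in the zygote, near the median of all genes. In 8C embryos, morulae and blastocysts it lay at 6.74 ± 0.12, 7.05 ± 0.27 and 7.14 ± 0.04, at percentiles 86.5, 88.1 and 94.1. At 2C it was at percentile 81.6 and at 4C at 39.6, where gradient A lay at 2.70 and gradients B and C at 5.83 and 6.33. In blastocyst fractions 9 and 10 Aurka averaged 780.4 and 788 CPM, against 137 and 154 in fractions 1 and 2. Aurkc lay at percentiles 84.3, 78.9 and 81.7 in these stages, and Plk1 was at 25.04 in GV and 82.2 in blastocysts. With all 10 fractions Incenp lay light, at percentile 6.51 in morulae and 1.99 in blastocysts. In blastocysts fraction 1 alone averaged 76.6 CPM against 1.38 to 19.4 in the other fractions. In morulae fraction 1 held only 40, 47 and 43 Incenp reads. With fraction 1 left out, the mean fraction number of Incenp went from 3.94 to 6.06 in morulae, so its light position there rested on that fraction. In blastocysts it went from 3.32 to 4.99. That of Cdca8 in morulae went from 4.88 to 6.76.

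**Figure D4:**
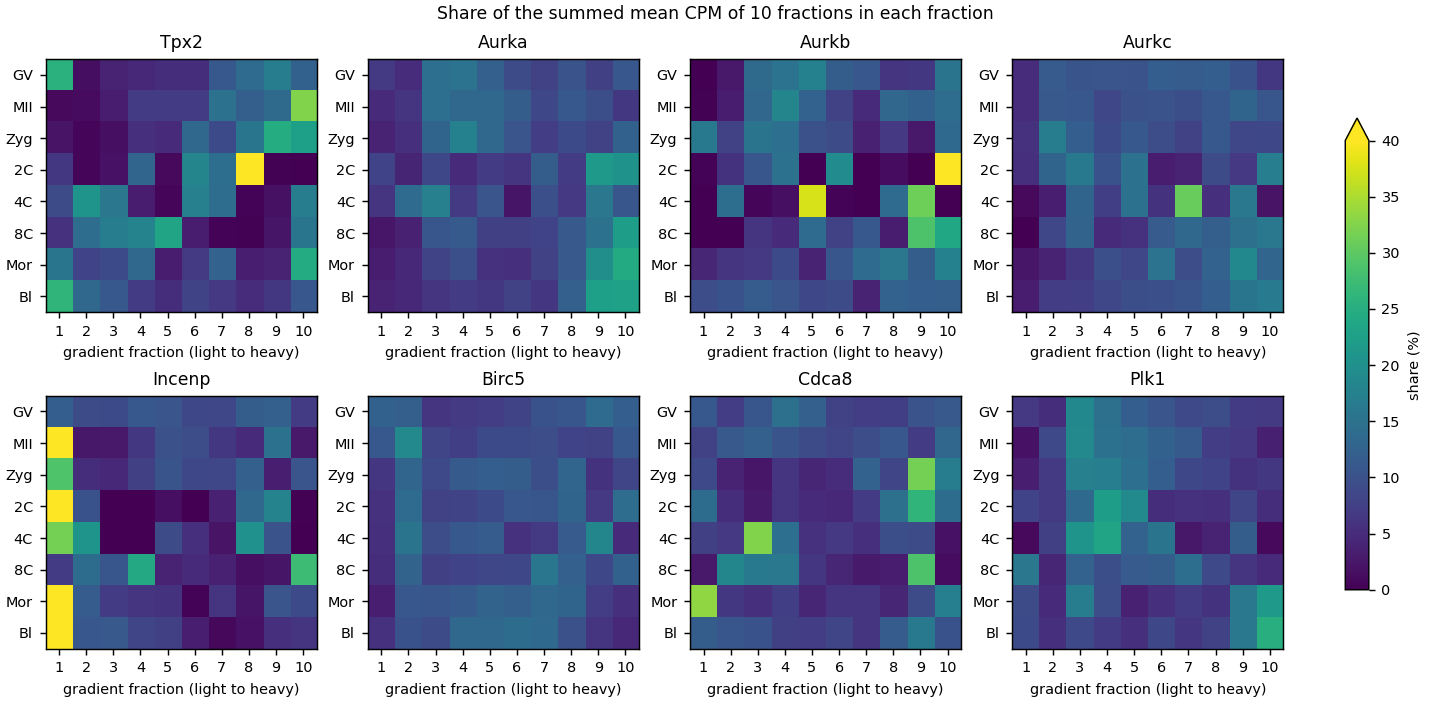
Share (%) of the summed mean CPM of 10 fractions found in each fraction, light (1) to heavy (10), for each gene (panels) and stage (rows); colours above 40% are not resolved. Tpx2 is concentrated in fractions 9 and 10 in the zygote, and Aurka in fractions 9 and 10 from 8C on. Incenp is highest in fraction 1 in MII (through gradient A), zygote, 2C (mostly through gradient C), 4C (mostly through gradient B), morula and blastocyst. Plk1 is highest in fraction 3 from GV to zygote, in fractions 4 and 5 at 2C, 3 and 4 at 4C, and 10 in blastocysts.

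Plk1 had high levels in the fractions of oocytes and zygotes. In fraction 3 it averaged 1820.5 CPM in GV, 2244 in MII and 2290.3 in zygotes, the highest fraction in 8 of these 9 gradients. Its transcriptome pools read 128 to 222 CPM at these stages. The ratio of the mean over fractions to the transcriptome mean was 4.83 in GV, 6.27 in MII, 9.32 in the zygote and 7.66 at 2C, at percentiles 92.9, 92.4, 94.3 and 95.9 of all genes. It was 2.52 at 4C and 0.542 in blastocysts, at percentile 44.9. Tpx2 had the reverse pattern with ratios of 0.0756 to 0.282 at all stages, and Cdca8 stayed between 0.103 and 0.340. Aurka stayed between 0.737 and 1.82.

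Heavy and light sides were compared within each stage. Of the 64 comparisons of the 8 genes, 4 were called. Tpx2 was heavy in zygotes, with 115, 147 and 179 CPM on the heavy and 22.5, 17.8 and 34.9 on the light side, a difference of 2.53 ± 0.62 (limma adjusted p = 0.0141). It was heavy at 2C by 1.83 ± 0.62 (adjusted p = 0.034) and light at 8C by -1.87 ± 0.62 (adjusted p = 0.0492). At 2C 1 fraction per gradient held most of the heavy Tpx2 signal, fraction 8 in A (388 CPM), 6 in B (174 CPM) and 7 in C (99.0 CPM), while fractions 9 and 10 read 0 to 1.30 CPM. With log2 taken per fraction before averaging, the 2C difference was 0.13 (limma adjusted p = 0.986). Plk1 was light at 2C, with 278, 292 and 73.2 CPM on the heavy and 475, 576 and 461 on the light side, a difference of -1.46 ± 0.48 (adjusted p = 0.0267). In MII the Tpx2 difference was 1.91 ± 0.62 (adjusted p = 0.0872). No call was made in GV (background 0.0725% of 15172 genes), MII (3.23%), 4C (16.3%), morula (5.81%) or blastocyst (2.74%), where 0, 1, 1, 1 and 2 of the genes had an unadjusted p under 0.05 and edgeR called none. The background was 3.01% in zygotes, 18.2% at 2C and 9.05% at 8C.

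These calls changed with the treatment of replicates. Leaving out the gradients of 1 letter gave 1 call without A, 0 without B and 2 without C. With the gradient as a replicate block, which pairs both sides of 1 lysate, 7 were called: Tpx2 at 8C was lost, and Cdca8 in zygotes (1.498, limma adjusted p = 0.017), Cdca8 at 4C (-1.34, adjusted p = 0.0107), Aurkc at 8C (1.26, adjusted p = 0.00678) and Aurkc in morulae (1.15, adjusted p = 0.018) were added. Without 4C gradient A 8 were called. The Aurka differences of 1.15 at 2C, 1.12 in morulae and 1.36 in blastocysts then had adjusted p-values of 0.00567, 0.0159 and 0.00473, against 0.242, 0.458 and 0.451 with that gradient. In blastocysts Aurka read 446, 525 and 518 CPM on the heavy and 173, 199 and 206 on the light side, without overlap. The SE of the Aurka differences at these 3 stages was 0.65 with 4C gradient A and 0.31 without it.

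**Figure D5:**
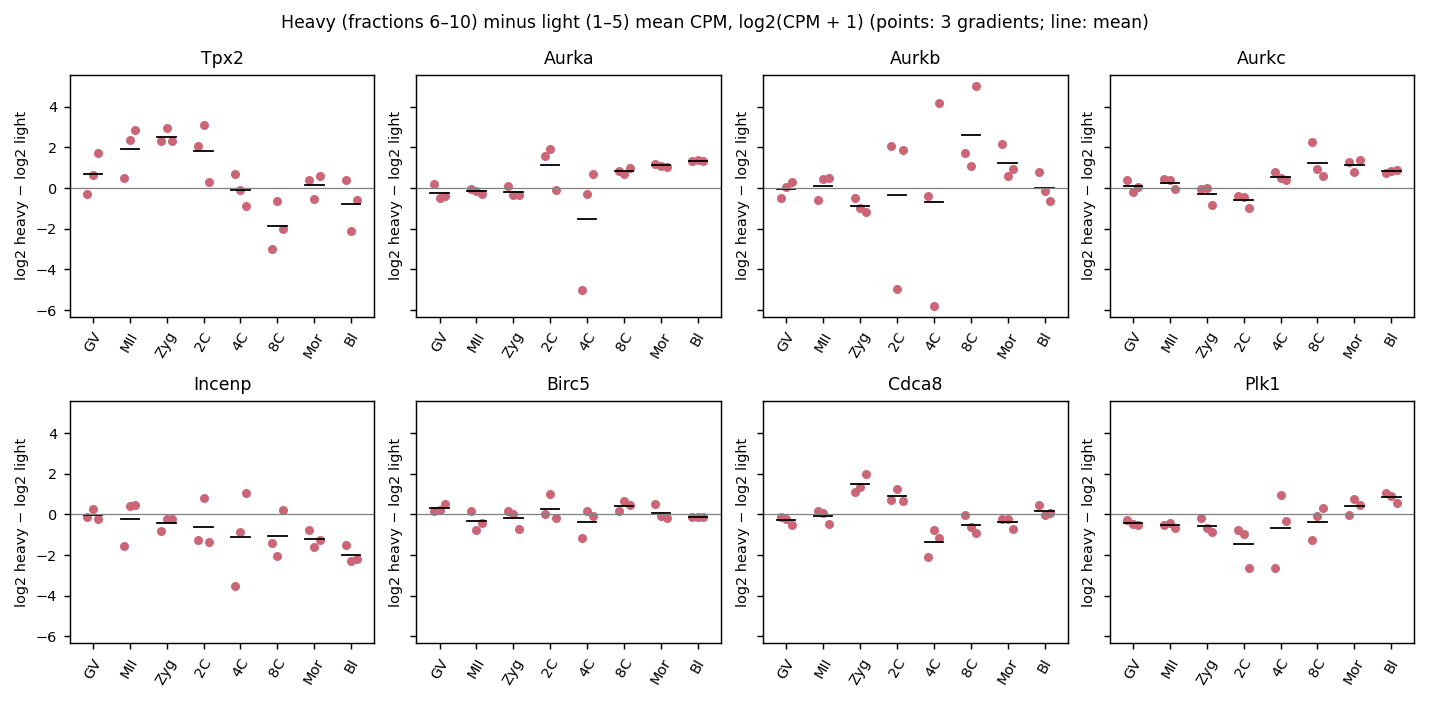
Difference between the heavy and the light mean on the log2(CPM + 1) scale for each of 3 gradients (points) with their mean (line), for the 8 genes by stage; values above 0 are heavier. Tpx2 is above 0 in all 3 zygote gradients, Aurka in all 3 gradients at 8C, morula and blastocyst, and the points spread most at 2C and 4C.

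Whether a transcript moved along the gradient at maturation or fertilization was tested as a change of the heavy-light difference. None of the 8 genes passed from GV to MII or from MII to zygote, in limma or edgeR, and none had an unadjusted p under 0.05 in either tool. The background was 0.185% and 0.0198% of 15172 genes. The Tpx2 change was 1.22 ± 0.88 at maturation (95% interval -0.56 to 2.99) and 0.62 ± 0.88 at fertilization (-1.15 to 2.40), and that of Cdca8 at fertilization was 1.58 ± 1.28 (-1.01 to 4.17). Changes of several fold lie within these intervals. Fraction 1 of the GV light side enters the Tpx2 change at maturation. There 4 and 6 reads of Tpx2 stood as 382 and 253 CPM in gradients A and B. With fraction 1 left out, the mean fraction number of Tpx2 was 7.44 ± 0.10 in GV and 7.62 ± 0.78 in MII.

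The other genes of these pathways were taken from 3 lists. Of 15 spindle partners of Aurora A and Tpx2, 4 rose and 2 fell between GV and MII in the transcriptome, where 34.5% of all genes were called. Their median change was 0.53. Nedd1, which brings gamma-tubulin to the spindle, rose by 1.11 ± 0.20, Cep192, a centrosome scaffold of Aurora A, rose by 1.10 ± 0.16, and Kpna2, an importin that holds Tpx2 inactive, changed by -1.85 ± 0.22. Between 2C and 4C, 5 rose and 1 fell, where 64.8% of all genes were called. Ran, the GTPase that frees Tpx2 from importin, changed by 2.73 ± 0.11, and Rcc1, which loads Ran with GTP, by 2.76 ± 0.24. From MII to zygote Rcc1 was the 1 that fell (-1.67 ± 0.24), where 10.3% of all genes were called. From zygote to 2C, 2 rose and 2 fell, where 33.9% of all genes were called. Hmmr rose by 2.83 ± 0.18 and the Aurora A substrate Tacc3 changed by -2.64 ± 0.16.

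Of 13 genes that load the passenger complex or are its targets and co-workers at kinetochores, 7 fell and 2 rose between zygote and 2C. Their median change was -1.08, and 33.9% of all genes were called. The checkpoint gene Bub1b changed by -4.86 ± 0.17 and the kinetochore gene Ndc80 by -3.05 ± 0.22. At maturation 2 rose, Knl1 (1.14 ± 0.19) and Kif23 (1.08 ± 0.14), and at fertilization 2 fell, Kif2c (-1.54 ± 0.17) and Kif20a (-1.19 ± 0.28). The background at these steps was 34.5% and 10.3% of all genes. Between 2C and 4C, 5 rose and 3 fell (background 64.8%), with Kif2c at 2.77 ± 0.17 and the checkpoint kinase Ttk at -3.17 ± 0.17. In zygotes 2 of the 13 were heavy (background 3.01%). They were Sgo2a (2.70 ± 0.76), which guards cohesin at centromeres, and Racgap1 (2.02 ± 0.58), which acts in cytokinesis.

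Of 15 Polo relatives and M-phase switches, 2 rose and 3 fell at maturation, where 34.5% of all genes were called. Fzr1, an activator of the anaphase-promoting complex, changed by -2.82 ± 0.28 and Plk4, which duplicates centrioles, by 1.44 ± 0.23. Between zygote and 2C, 6 rose and 1 fell (background 33.9%), with the phosphatase gene Cdc25c at 4.46 ± 0.22 and Plk3 at 3.47 ± 0.32. Between 2C and 4C, 4 rose and 6 fell (background 64.8%). The oocyte genes Wee2 and Fbxo43, which hold the meiotic arrest, changed by -7.63 ± 0.20 and -6.14 ± 0.24 there. Cdc20, which triggers anaphase, was heavy in zygotes by 4.09 ± 0.49 and in MII by 1.68 ± 0.49, against 2.53 for Tpx2 in zygotes. The heavy Cdc20 level changed by -2.23 ± 0.58 from GV to MII. All of these passed limma's test, with adjusted p-values under the threshold, and the background of each step is the one given above.

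The genes whose transcriptome pattern was most like each member were ranked by Pearson r of log2(CPM + 1) over the 32 transcriptome libraries among 8004 symbols with a mean CPM of at least 10. Libraries of a stage share their stage, so r describes the order of stages. Tpx2 was closest to Nemf (0.943), Trmt13 and Yipf5, Aurka to D6Wsu163e (0.858), Aurkb to Mau2 (0.856) and Incenp to Gtf3c1 (0.941). Aurkc was closest to its copy Gm12463 (0.991), then to Pcgf1 (0.948) and Smu1 (0.945), and Birc5 to Bnip1 (0.950), Sap18 and Sap18b. Plk1 was closest to Edc4 (0.877) and Cdca2 (0.873), and Cdca8 to Ccnl2 (0.804). Among the 8 genes, Tpx2 and Aurkc had the highest r (0.756) and Tpx2 and Birc5 the lowest (-0.551), while Aurkb and Incenp, kinase and scaffold of 1 complex, had 0.587.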

How the data were processed

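The authors deposited 1 table of CPM per gene symbol and library (15854 symbols, 272 libraries), made per the submitters' processing notes with Trim Galore 0.6.7, FastQC, HISAT2 2.2.1, featureCounts 2.0.1, edgeR and GRCm39; the annotation is not given in the sources used here. In 271 libraries 100% of values were whole multiples of 1 read (tolerance 0.05 reads), which gave the read depths. Repeated symbols (76 groups, 159 symbols) were kept once, leaving 15771. With them 38 column sums exceeded the CPM limit, and the 9 furthest above were recorded as signal, deposited by the authors as CPM and used as CPM. No 2 replicate libraries agreed within sampling noise (286 pairs). The 2C transcriptome columns are lettered E to H and carry no replicate letter of the labels.

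Tests used limma 3.58.1 (R 4.3.3) on log2(CPM + 1), with 1 fit over all stages in each of 5 families (transcriptome, heavy fractions, heavy against light, change of that difference, heavy beyond transcriptome). Genes were kept if their CPM reached 1 in 4 or more transcriptomes, or in 3 or more samples in the other families. edgeR 4.0.16 on recovered reads was an alternative, without 2C fraction 7 of gradient B, whose read step cannot be told from rounding. Scripts were tested on simulated data. The simulated libraries had no very low depth and the same relative spread in pools and fractions, so these 2 features of the real fractions were not covered. Both sides of a gradient come from 1 lysate and are paired: over 24 gradients their deviations correlated at 0.008 to 0.253. All 8 genes are named, with the 3 most similar symbols each and up to 4 called genes per list with the largest changes. Members and lists were chosen with earlier results of these data known.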

Additional observations from a re-analysis of the deposited data

Results flagged for a closer look

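In 3 cases a transcriptome value lay far from the other pools of its stage by Dixon's criterion for 4 samples. In morulae Tpx2 read 207.2 CPM in pool A and 338 to 361 in the others. At 2C Cdca8 read 571.9 CPM in pool E and 313 to 342 in the others. In zygotes Plk1 read 174.5 CPM in pool B and 128 to 134 in the others. Chance flags about 1 in 20 groups, and 64 groups were examined.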

How the results depend on the processing

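Of the 16 calls in the transcriptome, 11 held under each alternative run, and so did 1 of 3 in the heavy fractions (Plk1, zygote to 2C), 1 of 11 for the heavy change beyond the transcriptome (Birc5, GV to MII) and 0 of 4 for heavy against light. The transcriptome count stayed within 13 to 16 calls. The cause of the changes below was not tested. The heavy-fraction count of 3 became 6 with quantile normalization, 5 when each fit held only the stages compared, 5 with the letter as a replicate block, 10 when log2 was taken per fraction before averaging, 6 without 4C gradient A, and 2 to 5 without single replicates. The heavy-light count of 4 became 2 with quantile normalization, 7 with the gradient as a replicate block, 1 with edgeR, 1 with fractions 7 to 10 as the heavy side, 8 without 4C gradient A, and 0 to 2 without single replicates. The count of 11 beyond the transcriptome became 6 when each fit held only the stages compared, 3 with edgeR, 6 with fractions 7 to 10, 18 with log2 per fraction, 5 without 4C gradient A, and 4 to 13 without single replicates. With the letter as a replicate block it was 2, against 5 in the 5 comparisons that this fit allows without the 2C pools. With log2 per fraction, Tpx2 from zygote to 2C (-2.47) and Plk1 from 4C to 8C (2.30) took the opposite sign to the values of 0.06 and -0.10 in the test above. The replicate block left all 7 transcriptome calls it could test. Same-letter pools of different stages showed little common deviation (median r 0.02 over 84 pairs, -0.001 for heavy means). This cannot show whether a letter stands for a shared collection, which the labels do not say. Where 1 replicate was left out, the spread was taken from all stages. Depth limits the fractions: in fraction 1 of GV gradient A the 0.0102 M reads make 10 reads of Plk1 read as 955 CPM.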
